A study of Mus musculus with 12 samples.

Results

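The enzymes of the citric acid cycle and of its main entry routes were followed across the livers of 12 mice. The list held 30 genes, chosen by function and taken by gene symbol from a deposited table of 54532 genes: 8 genes for the entry of pyruvate into mitochondria and into the cycle, 12 for enzymes of the mitochondrial cycle, 3 for their cytosolic counterparts, 5 for the aminotransferases and glutamate dehydrogenase, and the malic enzymes Me2 and Me3. All 30 symbols were found. In all, 14277 genes and 29 of the 30 members had enough reads to be tested; Me3, with 1 to 8 counts a library, did not.

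The mice were males with Slc25a34 alleles flanked by loxP sites in the promoter and intron 1, and so the controls carried the floxed alleles too. At 2 months of age they received an AAV8 vector whose TBG promoter is active in hepatocytes, carrying either Cre (the hepatocyte knockout Slc-HKO, written HKO here) or GFP (the control, written WT here), and by the labels it targets over 95% of these cells. Chow was fed for the 1 month that followed, and then either chow again or FFD, a fast-food diet whose composition is not given in the sources used here, for 2 months. Livers were collected after a 16 h fast. Each of the 4 groups (WT chow, HKO chow, WT FFD and HKO FFD) held 3 mice with 1 library of whole-liver RNA each, and the labels number the mice separately, so that the spread between libraries is that between mice.

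Slc25a34, the deleted gene, encodes a carrier of the mitochondrial inner membrane family. Its counts were 116, 88 and 109 in the WT chow libraries and 4, 13 and 9 in the HKO chow libraries. On FFD they were 30, 92 and 67 in WT and 4, 4 and 18 in HKO. Every HKO library thus stood below every WT library of its diet, as the labels say. In edgeR the log2 fold change of this gene was -3.48 on chow (SE 0.45, adjusted p = 0.024). On FFD it was -2.88 (SE 0.46, adjusted p = 0.071), so that on FFD the deleted gene itself did not pass the threshold of 0.05. Total counts ranged from 12842187 to 24332663 a library. The 6 hepatocyte markers found summed to 57000 to 72600 CPM, counts scaled to a common library size by edgeR's TMM factors, in every library. Markers of skeletal and heart muscle, tissues rich in cycle enzymes, reached at most 0.277 CPM in sum, with Acta1 and Myh4 at 0 throughout. In whole tissue, fewer cells of a type and less RNA per cell cannot be told apart.

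The citric acid cycle oxidises acetyl groups in the mitochondrial matrix and passes their electrons to the respiratory chain. Pyruvate crosses the inner membrane through the mitochondrial pyruvate carrier and then either loses a carbon in the pyruvate dehydrogenase complex, giving acetyl-CoA, or gains one through pyruvate carboxylase, giving oxaloacetate. The second route is an anaplerotic reaction, one that refills the cycle, and in the fasted liver it feeds gluconeogenesis. The aminotransferases and glutamate dehydrogenase link the cycle to amino acids. The aspartate aminotransferases and the malate dehydrogenases, with their carriers, form the malate-aspartate shuttle, which moves reducing equivalents across the inner membrane.

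To compare genes with each other, levels were divided by gene length (CPM per kb, mean over the 12 libraries). For 28 members this length is that of all exons annotated in GENCODE M21 together, whether or not the liver uses them. Mpc2, at 187 CPM over 7344 bases, thus had 25.4 CPM per kb, and Mpc1, at 62.1 CPM over 2082 bases, 29.8. The order of genes and the size of ratios between genes are therefore uncertain. The 30 genes spanned a wide range on this scale. Glud1, glutamate dehydrogenase, was highest at 264 CPM per kb, followed by Pcx, pyruvate carboxylase, at 180, and Mdh1, the cytosolic malate dehydrogenase, at 174. Next came the alanine aminotransferase Gpt2 at 130, the cytosolic isocitrate dehydrogenase Idh1 at 119, Gpt at 116 and the aspartate aminotransferases Got2 and Got1 at 107 and 93.6 CPM per kb. The 8 highest levels per kb therefore belonged to pyruvate carboxylase, 2 cytosolic dehydrogenases and the 5 genes of amino transfer and glutamate. Every enzyme of the mitochondrial cycle ranked below them.

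Within the mitochondrial cycle, Fh1, fumarate hydratase, had 66.3 CPM per kb and Suclg2, the GTP-forming subunit of succinyl-CoA ligase, 60.8. Ogdh, the first enzyme of the 2-oxoglutarate dehydrogenase complex, Idh3b, Suclg1, Mdh2, the mitochondrial malate dehydrogenase, and Idh2, the NADP-dependent isocitrate dehydrogenase of mitochondria, lay close together between 44.1 and 49.1 CPM per kb. Cs, citrate synthase, had 18 CPM per kb. On this scale the 3 subunit genes of the NAD-dependent isocitrate dehydrogenase were unequal, with Idh3b at 47.9, Idh3g at 21.1 and the catalytic subunit gene Idh3a at 6.63 CPM per kb. Of the pyruvate dehydrogenase complex, Pdhb and Pdha1 stood at 32.7 and 31.3, the acetyltransferase Dlat at 10.6 and the binding protein Pdhx at 8.15 CPM per kb. Dld, the dihydrolipoamide dehydrogenase shared by the pyruvate and the 2-oxoglutarate complexes, had 35.6 CPM per kb. Me2 and Me3, the mitochondrial malic enzymes, were lowest at 1.52 and 0.0137 CPM per kb.

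**Figure D1:**
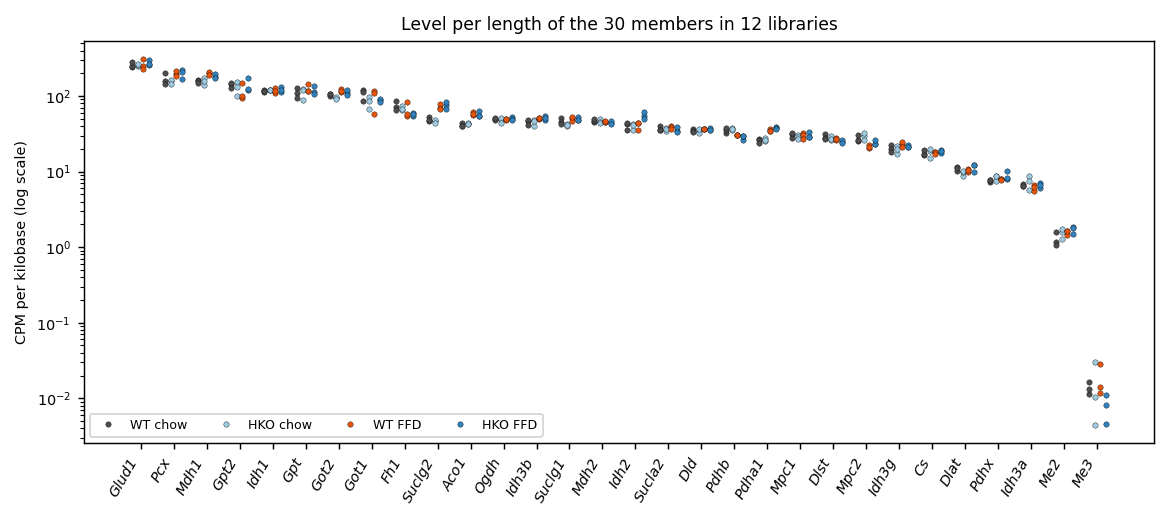
Level of each of the 30 genes per kb of gene length (CPM per kb, log axis), 1 point per library, coloured by group, with the genes in descending order of level. Glud1 is highest at a mean of 264 CPM per kb and Me3 lowest at 0.0137, and the libraries of the 4 groups lie close together beside the range between genes.

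The spread of these genes between mice is set beside that of all tested genes, which were not matched for level. A lower spread as a trait of these genes cannot be told apart from a difference in level. The median coefficient of variation within groups was 8.03% over the 29 tested members and 14% over all tested genes. It was lowest for Dld, at 4.13%, and highest for Got1, at 21.1%, followed by Gpt2 at 19.9%, Me2 at 15.1%, Gpt at 14.9%, Fh1 at 14.6% and Pcx at 12.4%. Summed over all 30 members, levels were 7395 ± 359 CPM in WT chow, 7093 ± 301 in HKO chow, 7735 ± 659 in WT FFD and 7845 ± 577 in HKO FFD (SD, n = 3 each), and the members took 0.701 to 0.827% of a library's counts.

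The first comparison sets the fast-food diet beside chow. In the deposited column names, the numbers of all FFD libraries precede those of all chow libraries. That of WT chow replicate 3 stands apart from the other chow numbers. What these numbers stand for is not given, and diet cannot be told apart from whatever follows them. Averaged over the genotypes, 10 of the 29 tested members (34.5%) passed edgeR's quasi-likelihood test at a Benjamini-Hochberg adjusted p under 0.05, where 26.8% of all tested genes passed. Without HKO chow replicate 3 it was 6 of 29, beside 3233 of 14637 genes, and without HKO FFD replicate 2 it was 6 of 29, beside 3070 of 14640 genes. Of the 10, 8 rose (Suclg2, Pdha1, Aco1, Pcx, Mdh1, Idh2, Got2 and Suclg1) and 2 fell (Mpc2 and Pdhb). The share that rose was 27.6% of the members beside 13.9% of all genes, and the share that fell 6.9% beside 12.9%. The changes were small: 1 member, Suclg2, moved by more than 0.5 on the log2 scale in the averaged comparison (3.45%, beside 18.1% of all tested genes). Values above 0 were found for 21 members (72.4%, beside 48.7%), and the median log2 fold change was 0.08 over the members and -0.01 over all tested genes. By role, 2 of the 8 pyruvate entry genes rose and 2 fell, 3 of the 12 cycle genes rose, 2 of the 3 cytosolic counterparts rose, 1 of the 5 amino transfer genes rose, and Me2 did not pass the test.

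Within a genotype, 5 of the 29 members passed in each case. In WT mice these were Pdha1, Suclg2, Aco1 and Mdh1, which rose, and Mpc2, which fell (17.2%, beside 14.9% of all tested genes, of which 8.24% rose and 6.61% fell). In HKO mice they were Pdha1, Suclg2, Aco1 and Idh2, which rose, and Pdhb, which fell (17.2%, beside 13.6%, of which 7.46% rose and 6.12% fell). Members whose chow and FFD libraries did not overlap numbered 10 in WT (34.5%, beside 32.6% of all tested genes) and 11 in HKO (37.9%, beside 33.6%). These shares lie near those of all genes. The count in WT fell to 3 when WT chow replicate 2, WT chow replicate 3, WT FFD replicate 1 or WT FFD replicate 2 was left out, and the count in HKO was 8 without WT chow replicate 3; that library is in neither arm of the comparison and enters it through the fit shared by all groups. The shares of all tested genes in those fits with a library left out are not given here. DESeq2 called 6 members in WT (beside 17.4% of all genes), 8 in HKO (beside 15.3%) and 11 averaged over genotypes (beside 22.8%).

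**Figure D2:**
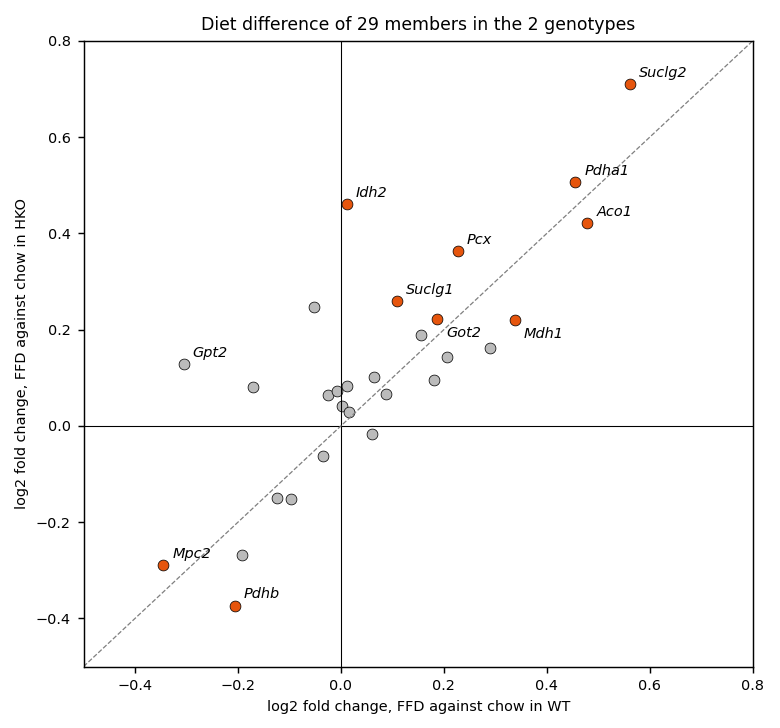
Log2 fold change of FFD against chow in WT mice (horizontal) and HKO mice (vertical) for the 29 tested members, with the line of equal change dashed. Orange points are the 10 members that passed the test averaged over genotypes. Pdha1, Suclg2 and Aco1 lie at the upper right, Mpc2 and Pdhb at the lower left, and Idh2 at 0.01 in WT and 0.46 in HKO.

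The pyruvate dehydrogenase complex showed opposite changes of its paired subunit genes. Pdha1 and Pdhb encode the alpha and beta subunits of the enzyme that decarboxylates pyruvate, and the protein holds them in equal number. Pdha1 (ENSMUSG00000031299; mm10 chromosome X, 160122209 to 160138413, minus strand) stood at 100.5, 96.4 and 90.5 CPM in WT chow and 104.2, 96.2 and 96.9 in HKO chow. On FFD it stood at 135.9, 130.4 and 127.5 CPM in WT and 145.6, 142 and 134.8 in HKO. All 6 FFD libraries lay above all 6 chow libraries. The log2 fold change of FFD against chow was 0.46 (SE 0.07, adjusted p = 0.0016) in WT and 0.51 (SE 0.07, adjusted p = 0.00095) in HKO mice by edgeR's quasi-likelihood test, a 1.4-fold rise averaged over genotypes.

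Pdhb (ENSMUSG00000021748; chromosome 14, 8165996 to 8173025, minus strand) moved the other way. It stood at 126.7, 135.6 and 144.2 CPM in WT chow and 138.2, 144.3 and 143.2 in HKO chow. On FFD it had 116.4, 119.5 and 116.3 CPM in WT and 101, 114.6 and 112.9 in HKO. The 6 FFD libraries again did not overlap the 6 chow libraries. Pdhb fell by 0.37 on the log2 scale in HKO mice (SE 0.07, adjusted p = 0.006) and by 0.29 averaged over genotypes (SE 0.05, adjusted p = 0.0015, edgeR). In WT mice its log2 fold change was -0.21 (SE 0.07, adjusted p = 0.078).

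The ratio of Pdha1 to Pdhb levels per kb, taken within each library, was 0.735 ± 0.0855 in WT chow and 0.723 ± 0.0491 in HKO chow, and 1.16 ± 0.0462 in WT FFD and 1.33 ± 0.138 in HKO FFD (SD, n = 3 each). It ran from 0.649 to 0.82 over the chow libraries and from 1.13 to 1.49 over the FFD libraries. The ratio was chosen after the values were seen and is given as a description without a test. The other genes of the complex did not pass the test averaged over genotypes: the log2 fold changes were 0.10 for Dlat, 0.08 for Dld and 0.08 for Pdhx (adjusted p = 0.32, 0.27 and 0.42, edgeR).

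**Figure D3:**
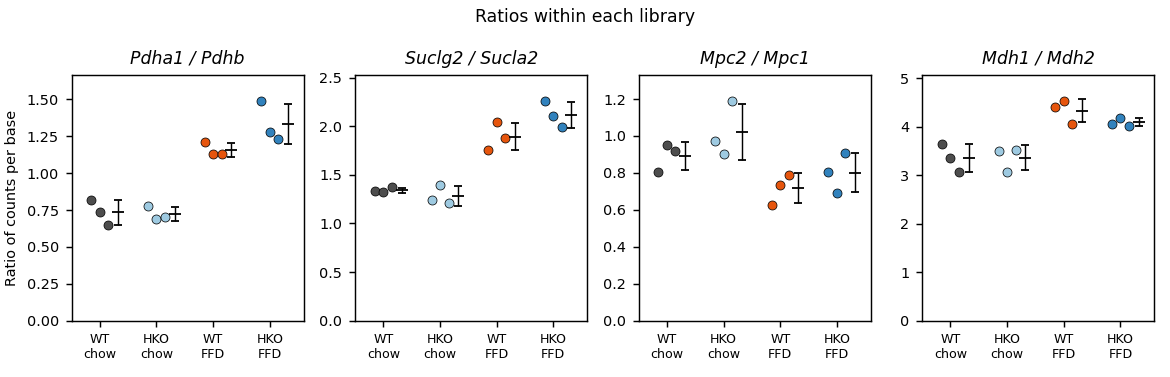
Ratio of levels per kb within each library for 4 pairs of members, 1 point per library by group, with the group's mean and SD beside the points. Pdha1 over Pdhb lies between 0.649 and 0.82 in the chow libraries and between 1.13 and 1.49 in the FFD libraries, and Suclg2 over Sucla2 between 1.21 and 1.4 on chow and between 1.76 and 2.26 on FFD.

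The stretches upstream of the oppositely moving pair, and of Suclg2, the member with the largest rise, are shown because these are the genes the diet comparison turns on. The sequences are from RefSeq on GRCm38.p6, the build of mm10, and run 5′ to 3′ on the gene's own strand. Those of Pdha1 (chrX:160138431-160138680, minus strand) and Suclg2 (chr6:95718847-95719096, minus strand) are the 250 bases before the RefSeq start, and that of Pdhb (chr14:8173026-8173242, minus strand) is its 217 bases that lie outside the gene as deposited. Capitals mark GGGCGG, the core letters bound by SP1, or CCGCCC, the same letters read on the other strand.
Pdha1: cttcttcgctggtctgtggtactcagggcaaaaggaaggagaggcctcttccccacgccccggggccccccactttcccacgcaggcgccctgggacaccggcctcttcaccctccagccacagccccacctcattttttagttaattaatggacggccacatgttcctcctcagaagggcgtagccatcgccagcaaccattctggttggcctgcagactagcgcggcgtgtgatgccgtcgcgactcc
Pdhb: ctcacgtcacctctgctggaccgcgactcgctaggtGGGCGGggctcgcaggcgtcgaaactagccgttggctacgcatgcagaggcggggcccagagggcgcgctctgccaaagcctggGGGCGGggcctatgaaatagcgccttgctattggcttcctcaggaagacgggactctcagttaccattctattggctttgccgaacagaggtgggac
Suclg2: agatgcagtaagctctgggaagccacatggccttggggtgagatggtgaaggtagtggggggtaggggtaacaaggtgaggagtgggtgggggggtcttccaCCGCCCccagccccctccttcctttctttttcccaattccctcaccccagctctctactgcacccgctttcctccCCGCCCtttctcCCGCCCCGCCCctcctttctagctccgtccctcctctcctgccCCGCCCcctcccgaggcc
Pdhb held 2 matches, both reading GGGCGG on the gene's strand, Suclg2 held 5, all reading CCGCCC and with one pair sharing a letter, and Pdha1 held 0. Among all 32851 RefSeq promoter windows of this length, 32.7% held GGGCGG on either strand, and among the 35 windows found for 27 of the members 62.9% did (22 windows). Those 22 windows belong to 19 of the 27 members, so some genes count more than once. The windows of all genes were not matched to the members for level, so these shares do not show a trait of the members. Windows for Gpt, Me2 and Idh3a were not used here. Of the other motifs searched on both strands, AAGGTCA, letters bound by oestrogen-related receptors, was in 2.86% of the member windows (Got1) and 4.08% of all windows, and CCGGAAG, letters bound by ETS factors, in 8.57% and 6.91%. TGACGTCA, the cyclic AMP response element, was in 11.4% of the member windows and in 1.55% of all. These were 4 windows from only 2 of the 27 members, Mdh2 and Ogdh, so the window share counts the same genes more than once. The palindromic NRF1 motif and the DR1 repeat bound by PPAR and HNF4 factors were in 0 member windows, and in 0.782% and 0.0335% of all. A match describes letters and not binding.

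The mitochondrial pyruvate carrier is a pair of Mpc1 and Mpc2. Mpc2 (chromosome 1, 165460637 to 165481214, plus strand) had 184.5, 192.5 and 220.7 CPM in WT chow and 217.8, 191.7 and 234.9 in HKO chow. FFD libraries held 150.8, 163.4 and 156.1 CPM in WT and 169.5, 167.9 and 189.7 in HKO. Within each genotype every FFD library lay below every chow library. It fell by 0.35 on the log2 scale in WT mice (SE 0.10, adjusted p = 0.03) and by 0.32 averaged over genotypes (SE 0.07, adjusted p = 0.0043), and its value in HKO mice was -0.29 (SE 0.10, adjusted p = 0.064, edgeR). Without WT chow replicate 2, WT chow replicate 3, WT FFD replicate 1, WT FFD replicate 2 or WT FFD replicate 3 the call in WT mice was lost, with adjusted p up to 0.12, and the averaged call held in every alternative, with adjusted p up to 0.015. Mpc1 stood between 55.8 and 68.6 CPM in all libraries, with a log2 fold change of 0.02 averaged over genotypes (adjusted p = 0.87, edgeR). A pseudogene copy of Mpc1 may share its reads, so that its level is uncertain. The within-library ratio of Mpc2 to Mpc1 per kb was 0.892 ± 0.0784 in WT chow, 1.02 ± 0.15 in HKO chow, 0.718 ± 0.0821 in WT FFD and 0.802 ± 0.107 in HKO FFD (SD, n = 3 each).

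Pcx (chromosome 19, 4510472 to 4621752, plus strand), whose product makes oxaloacetate from pyruvate, had 740.8, 671.8 and 943.3 CPM in WT chow and 722, 759.7 and 673.4 in HKO chow. On FFD it had 896, 1006 and 853.7 CPM in WT and 1017, 973.5 and 782.7 in HKO. The HKO libraries did not overlap between diets, and in WT the chow library at 943.3 lay among the FFD libraries. Pcx rose by 0.29 on the log2 scale averaged over genotypes (SE 0.09, adjusted p = 0.036, edgeR), and this call was lost in 9 of 19 alternatives, with adjusted p up to 0.087.

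**Figure D4:**
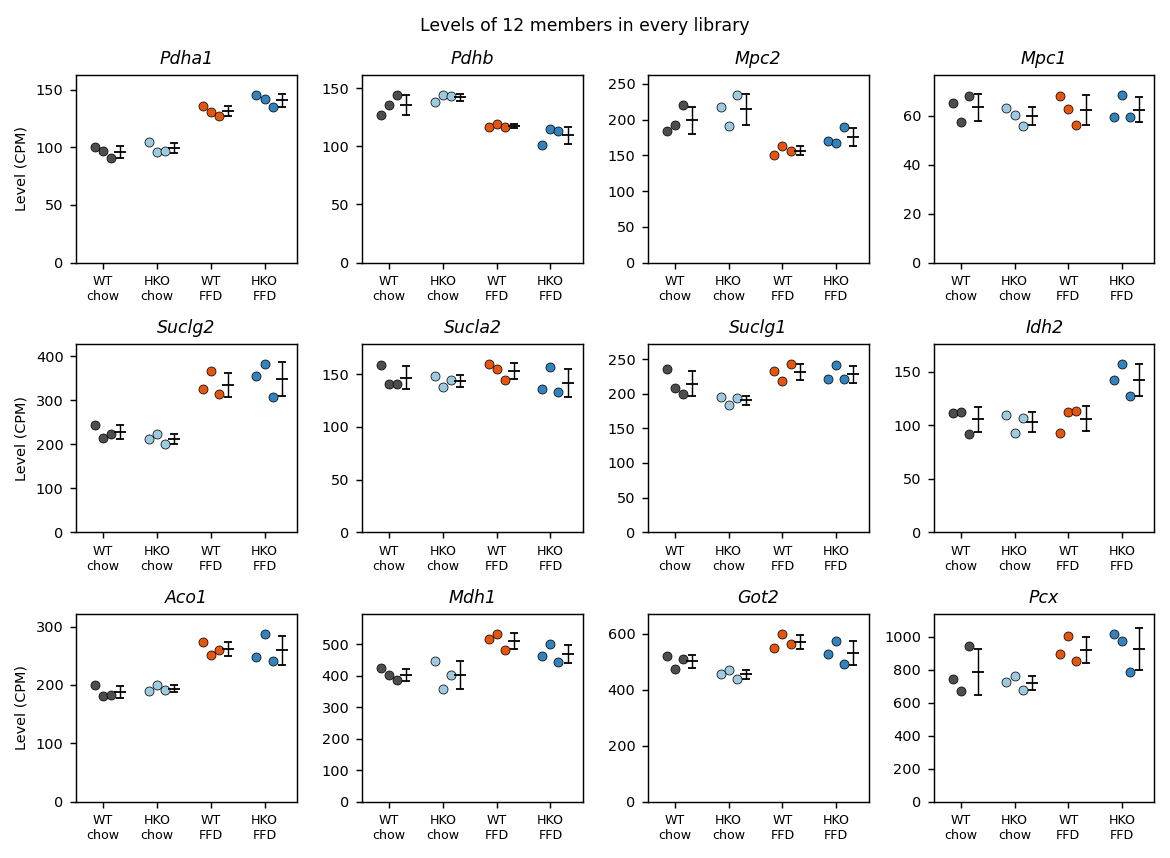
Level in CPM of 12 members, which are the 10 that passed the diet test averaged over genotypes with Mpc1 and Sucla2, 1 panel a gene with its own axis from 0, 1 point per library by group and the group's mean with its SD beside the points. Pdha1, Suclg2 and Aco1 have every FFD library above every chow library and Pdhb every FFD library below, while for Idh2 the 3 HKO FFD libraries, from 127.2 to 156.9 CPM, stand above all others.

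Among the cycle enzymes the largest change was in succinyl-CoA ligase, the enzyme that forms a nucleoside triphosphate from succinyl-CoA. Suclg1 encodes its common subunit, Suclg2 the partner that makes the enzyme form GTP and Sucla2 the partner for ATP. Suclg2 (ENSMUSG00000061838; chromosome 6, 95473009 to 95718800, minus strand) had 244.6, 215.2 and 222.6 CPM in WT chow and 212.8, 223.9 and 201.7 in HKO chow. On FFD it had 325.6, 366.2 and 315 CPM in WT and 355.2, 382.2 and 306.7 in HKO. All FFD libraries lay above all chow libraries. The rise was 0.56 on the log2 scale in WT (SE 0.10, adjusted p = 0.0032) and 0.71 in HKO (SE 0.10, adjusted p = 0.00097), 1.55-fold averaged over genotypes by edgeR.

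Suclg1 rose less. Its group means were 215 ± 18.6 CPM in WT chow, 191 ± 6.41 in HKO chow, 232 ± 12 in WT FFD and 228 ± 12.2 in HKO FFD (SD, n = 3 each), with a log2 fold change of 0.18 averaged over genotypes (SE 0.06, adjusted p = 0.032, edgeR). That call was lost in 9 of 19 alternatives, with adjusted p up to 0.08. Sucla2 stood at 147 ± 10.7, 143 ± 5.49, 153 ± 7.52 and 142 ± 13 CPM in the same order, with a log2 fold change of 0.02 (95% interval -0.11 to 0.15, adjusted p = 0.83, edgeR). The ratio of Suclg2 to Sucla2 per kb within a library was 1.34 ± 0.0265 in WT chow, 1.28 ± 0.102 in HKO chow, 1.89 ± 0.14 in WT FFD and 2.12 ± 0.136 in HKO FFD (SD, n = 3 each), a description chosen after the values were seen.

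Idh2 (chromosome 7, 80094846 to 80115392, minus strand), which makes NADPH in mitochondria, had 111.5, 112.4 and 92 CPM in WT chow and 109.8, 92.6 and 107 in HKO chow. On FFD it had 92.9, 112.3 and 113.2 CPM in WT and 141.9, 156.9 and 127.2 in HKO. The HKO FFD libraries were the 3 highest of the 12, and the other groups overlapped. The log2 fold change of FFD against chow was 0.01 in WT mice (SE 0.11, adjusted p = 0.96) and 0.46 in HKO mice (SE 0.11, adjusted p = 0.019, edgeR). The call in HKO mice was lost when a single library was left out in 3 cases: HKO chow replicate 2 (adjusted p = 0.057), and replicates 1 and 2 of HKO FFD (0.052 and 0.087, edgeR). Averaged over genotypes Idh2 rose by 0.24 (SE 0.08, adjusted p = 0.045), a call lost in 9 of 19 alternatives with adjusted p up to 0.16.

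The other 9 genes of the mitochondrial cycle did not pass the diet test averaged over genotypes. Idh3b and Idh3g had log2 fold changes of 0.17 in each case (adjusted p = 0.056 and 0.083), Fh1 -0.23 (adjusted p = 0.12), Idh3a -0.14 (adjusted p = 0.3) and Dlst, the succinyltransferase of the 2-oxoglutarate complex, -0.12 (adjusted p = 0.13, all by edgeR). Cs, Ogdh and Mdh2 lay near 0. Their 95% intervals ran from -0.13 to 0.17 for Cs, from -0.08 to 0.15 for Ogdh and from -0.16 to 0.06 for Mdh2. The counts of Fh1 and Idh3b are uncertain, since Kmo overlaps Fh1 and Nop56 overlaps Idh3b on the opposite strand, and whether counting used strand is not given in the sources used here. Summed over the libraries, Kmo had 71438 counts beside 46850 of Fh1, and Nop56 had 4794 beside 34417 of Idh3b.

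The cytosolic counterparts of cycle enzymes split. Aco1, a cytosolic aconitase that also acts as an iron-responsive RNA-binding protein (chromosome 4, 40143081 to 40198338, plus strand), had 200.3, 180.6 and 182.2 CPM in WT chow and 189.1, 200 and 191.8 in HKO chow. The FFD values were 274.2, 250.6 and 259.7 CPM in WT and 248.2, 287.6 and 241.7 in HKO. No FFD library overlapped a chow library. Aco1 rose by 0.48 on the log2 scale in WT (SE 0.08, adjusted p = 0.0033) and 0.42 in HKO mice (SE 0.08, adjusted p = 0.0067, edgeR).

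Mdh1 (chromosome 11, 21556787 to 21572367, minus strand), the cytosolic arm of the malate-aspartate shuttle, had 422.8, 400.7 and 385.4 CPM in WT chow and 447.5, 357.8 and 402.5 in HKO chow. The FFD values were 514.5, 532.5 and 481.1 CPM in WT and 463.2, 499.2 and 443.8 in HKO. The WT libraries did not overlap between diets, and in HKO the highest chow library lay above the lowest FFD library. The rise was 0.34 on the log2 scale in WT mice (SE 0.09, adjusted p = 0.03) and 0.28 averaged over genotypes (SE 0.07, adjusted p = 0.0078), and the value in HKO mice was 0.22 (SE 0.09, adjusted p = 0.14, edgeR). The call in WT mice was lost in 6 of 20 alternatives, with adjusted p up to 0.16; the averaged one held in all 19, with adjusted p up to 0.031. The ratio of Mdh1 to Mdh2 per kb was 3.35 ± 0.29 in WT chow, 3.36 ± 0.252 in HKO chow, 4.33 ± 0.243 in WT FFD and 4.09 ± 0.0833 in HKO FFD (SD, n = 3 each), with no overlap between the diets. Idh1 stood between 301 and 366 CPM in all 12 libraries, with a 95% interval of -0.11 to 0.16 for its averaged log2 fold change.

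Of the amino transfer and glutamate genes, Got2 alone passed the test, the mitochondrial aspartate aminotransferase (chromosome 8, 95864134 to 95888547, minus strand). It had 519.8, 475.7 and 509.2 CPM in WT chow, 456.9, 469.6 and 438.8 in HKO chow, 549.7, 600.2 and 562.8 in WT FFD and 526.3, 575.2 and 491.9 in HKO FFD. The diets did not overlap within a genotype. Got2 rose by 0.20 averaged over genotypes (SE 0.06, adjusted p = 0.02, edgeR), and leaving out WT chow replicate 2, HKO chow replicate 3 or HKO FFD replicate 2 ended the call, with adjusted p up to 0.053. Its cytosolic partner Got1 ran from 148.7 CPM in a WT FFD library to 304.2 in a WT chow library, and its averaged interval was wide, from -0.38 to 0.29. Gpt2, the mitochondrial alanine aminotransferase, had log2 fold changes of -0.31 in WT and 0.13 in HKO mice (adjusted p = 0.33 and 0.72), Gpt, the cytosolic one, of 0.18 and 0.10 (0.47 and 0.74), and Glud1 of 0.01 and 0.08 (0.96 and 0.69, edgeR). Me2 had 2.63 to 4.51 CPM, and its averaged log2 fold change of 0.23 did not pass the test (adjusted p = 0.27, edgeR).

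The diet changes in WT and in HKO mice come from separate libraries. Over the 29 members they had the same sign in 23 (79.3%), with a Pearson correlation across genes of 0.79 and a Spearman correlation of 0.73. Over all tested genes the sign was the same in 70.9%, with a Pearson correlation of 0.57. Genes are not independent replicates, and no test is attached to these values.

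Genes around the cycle were counted in the same averaged diet comparison. Of 11 tested genes for the remaining cycle enzymes, 1 rose: Sdha, the flavoprotein of succinate dehydrogenase, by 0.28 on the log2 scale (SE 0.06, adjusted p = 0.0053, edgeR), and the median over the list was 0.12. Of 10 genes for the control of pyruvate dehydrogenase and for lipoate, 3 rose: Pdk2 and Pdk1, kinases that switch the complex off, by 0.53 (SE 0.10, adjusted p = 0.0018) and 0.23 (SE 0.05, adjusted p = 0.004), and Pdpr, a regulator of its phosphatase, by 0.23 (SE 0.07, adjusted p = 0.027). Pdk1 was at 0.09 in WT and 0.37 in HKO mice (adjusted p = 0.43 and 0.0045, and 0.4 for the difference, edgeR). Of 7 carriers of cycle metabolites, 1 rose and 2 fell. Slc25a10, the dicarboxylate carrier, rose by 0.66 (SE 0.08, adjusted p = 0.00013), the glutamate carrier Slc25a22 fell by 0.64 (SE 0.12, adjusted p = 0.0017), and Slc25a12, an aspartate-glutamate carrier of the shuttle, fell by 0.21 (SE 0.06, adjusted p = 0.024). Slc25a13, the other aspartate-glutamate carrier, was at 0.05 (SE 0.06, adjusted p = 0.55, edgeR). Its group means were 348 to 371 CPM, and those of Slc25a12 17.4 to 21.3 CPM. Beside these, 26.8% of all tested genes passed in this comparison.

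Of 6 tested genes for glutamine and propionate entry, 3 rose, which were glutamine synthetase Glul (0.41, SE 0.08, adjusted p = 0.0028) and the propionyl-CoA carboxylase subunits Pcca (0.40, SE 0.09, adjusted p = 0.0061) and Pccb (0.31, SE 0.07, adjusted p = 0.0056). Glul was at 0.70 in WT and 0.12 in HKO mice (adjusted p = 0.0024 and 0.54, and 0.31 for the difference, edgeR). Of 6 genes that draw carbon out of the cycle or use its products, 4 fell. Fbp1 of gluconeogenesis fell by 0.32 (adjusted p = 0.0017), ATP citrate lyase Acly by 0.30 (adjusted p = 0.013), the gluconeogenic Pck1 by 0.36 (adjusted p = 0.02) and the cytosolic malic enzyme Me1 by 0.41 (adjusted p = 0.034, all by edgeR), and the median over the list was -0.31. G6pc, also of gluconeogenesis, went the other way at 0.54 (SE 0.29, adjusted p = 0.19), and Pck2 was at -0.23 (adjusted p = 0.16, edgeR). Of 7 transcription regulators of mitochondrial and fasting genes, Ppara and Gabpa rose by 0.34 and 0.24 (adjusted p = 0.0015 and 0.012) and Ppargc1a fell by 0.57 (SE 0.17, adjusted p = 0.027). Gabpa was at 0.02 in WT and 0.47 in HKO mice (adjusted p = 0.93 and 0.0049, and 0.3 for the difference, edgeR). Of 13 mitochondrially encoded mRNAs 1, mt-Nd3, fell, with a list median of -0.03, and of 8 genes of the mitochondrial outer membrane Vdac1 and Tomm70a rose and Samm50 fell. Over these 8 lists around the cycle 21 of 68 tested genes passed, beside 26.8% of all tested genes. Of all tested genes 13.9% rose and 12.9% fell.

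Some markers of liver zones and of other cells also differed between the diets in the averaged comparison, where 13.9% of all tested genes rose and 12.9% fell. Of 6 pericentral hepatocyte markers, 4 rose (Glul, Slc1a2, Oat and Cyp2e1), and their sum was 8720 to 10100 CPM in WT chow, 9840 to 11500 in HKO chow, 13000 to 16000 in WT FFD and 15200 to 17100 in HKO FFD. Of 6 periportal markers, Pck1 and Hal fell, with sums of 9380 to 12900 CPM over the chow libraries of both genotypes and 7560 to 10500 over the FFD libraries. Of 6 Kupffer cell and macrophage markers, 4 rose (Clec4f, Timd4, Cd68 and Adgre1), with sums of 141 to 222, 173 to 191, 232 to 259 and 207 to 219 CPM in the 4 groups in the same order. Marco went the other way, at -0.94 on the log2 scale (adjusted p = 0.12), and Vsig4 was at 0.09 (adjusted p = 0.33, edgeR). Of the 5 cholangiocyte markers Sox9 fell by 1.38 on the log2 scale (SE 0.15, adjusted p = 6.1e-05, edgeR), and it was called in each genotype. The median over that list was -1.11, and its sum was 35.7 to 65.1 CPM over the chow libraries and 28.8 to 40.9 over the FFD libraries. Of the 6 lymphocyte markers Ighm rose by 0.81 (SE 0.23, adjusted p = 0.02, edgeR), called in WT and not in HKO mice with an adjusted p of 0.28 for the difference between them, and the sums were 3.79 to 7.42, 7.48 to 8.91, 10.4 to 21.8 and 4.6 to 9.43 CPM in the 4 groups. Of the 6 hepatocyte markers Hnf4a and Apob fell. Cfd, of the fat markers, rose, the sum of the 4 fat markers running from 0.154 CPM to 146 CPM, and Ucp1 was at 0. The part of these shifts in the diet changes of the cycle genes was not tested.

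The second comparison asks what loss of Slc25a34 in hepatocytes changed. On chow 0 of the 29 members passed edgeR's quasi-likelihood test, beside 0.021% of all tested genes, and DESeq2 also called 0 (beside 0.692%). At an unadjusted p under 0.05 there were 0 members, beside 11.8% of all genes. The 95% interval of the log2 fold change lay within 0.5 of 0 in either direction for 26 of the 29 members (89.7%, beside 47.2% of all tested genes), and the exceptions were Got1, Gpt2 and Me2. All tested genes were not matched for level in this share, nor in those given below for FFD and averaged over the diets. Without HKO chow replicate 2, in which the gallbladder and gut markers summed to 19.9 CPM beside at most 1.82 in the libraries of the other groups, 313 of 14592 genes passed on chow and 0 members did.

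On chow 10 members had a log2 fold change above 0 (34.5%, beside 50.4% of all tested genes) and 19 below, with a median of -0.02 beside 0.00193 over all tested genes. The 3 smallest p-values belonged to Suclg1 (log2 fold change -0.17, SE 0.08, adjusted p = 0.44), Dlat (-0.17, SE 0.10, adjusted p = 0.51) and Got2 (-0.14, SE 0.08, adjusted p = 0.54, edgeR). Single libraries moved 2 of these by over 1.5 times. Suclg1 was at -0.10 without WT chow replicate 1 (adjusted p = 0.73), and Dlat was at -0.11 without HKO chow replicate 1 (adjusted p = 0.84). Suclg1, Dlat and Got2 were also the 3 members whose HKO libraries all lay below the WT libraries (10.3%, beside 7.39% of all tested genes), and 0 members lay wholly above (beside 6.86%, and 14.2% in either direction). Dlat, for example, had 55.5, 49.9 and 54 CPM in WT and 42.7, 48.8 and 49.5 in HKO, where the highest HKO and lowest WT libraries nearly touched.

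On FFD 0 of the 29 members passed edgeR's test, beside 0.007% of all tested genes, with Slc25a34 itself at an adjusted p of 0.071. DESeq2 called 0 (beside 0.885%), and 1 had an unadjusted p under 0.05 (beside 9.34% of all genes). That member was Idh2, at 106 ± 11.5 CPM in WT FFD and 142 ± 14.9 in HKO FFD (SD, n = 3 each). Its log2 fold change was 0.42 (SE 0.11, 95% interval 0.17 to 0.67, adjusted p = 0.23), 1.34-fold, higher in 3 of 3 HKO libraries than in every WT library. With no filter on low counts, which brought 27184 genes into the fit, Idh2 passed (adjusted p = 0.03). The share of all genes passing on FFD in that fit is not given here. On chow the same setting called 395 of 27184 genes, beside 3 of 14277 in the main fit. Across the alternatives the adjusted p of Idh2 on FFD ran from 0.03 to 0.53. Next came Mpc2 (0.16, SE 0.10, adjusted p = 0.63) and Pdhx (0.16, SE 0.10, adjusted p = 0.65). Each of these rested in part on HKO FFD replicate 3, without which Mpc2 was at 0.10 (adjusted p = 0.9) and Pdhx at 0.04 (adjusted p = 0.97), edgeR. Pdhx had 39.9 CPM in that library and 28.6 to 34.2 CPM in all others.

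The 95% interval lay within 0.5 of 0 for 24 of the 29 members on FFD (82.8%, beside 48.8% of all tested genes). Pdha1, for example, had a log2 fold change of 0.10 (95% interval -0.05 to 0.25), Pdhb -0.10 (-0.26 to 0.06), Suclg2 0.05 (-0.16 to 0.26) and Pcx 0.01 (-0.28 to 0.30). The groups did not overlap for 4 members (13.8%, beside 16.4%), with Mpc2 and Idh2 higher (6.9%, beside 8.08%) and Pdhb and Dlst lower in HKO (6.9%, beside 8.37%). A log2 fold change above 0 was found for 16 members (55.2%, beside 49.6%). Averaged over the diets 0 members passed edgeR's test (beside 0.035% of all tested genes), 1 had an unadjusted p under 0.05 (Idh2, 0.19, SE 0.08, adjusted p = 0.36; beside 12.2% of all genes), and DESeq2 called 0 (beside 1.71%). Got2 (-0.12, SE 0.06, adjusted p = 0.42) and Mpc2 (0.14, SE 0.07, adjusted p = 0.44) followed. The interval lay within 0.5 of 0 for 28 of the 29 members, all but Got1 (96.6%, beside 62.7%).

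**Figure D5:**
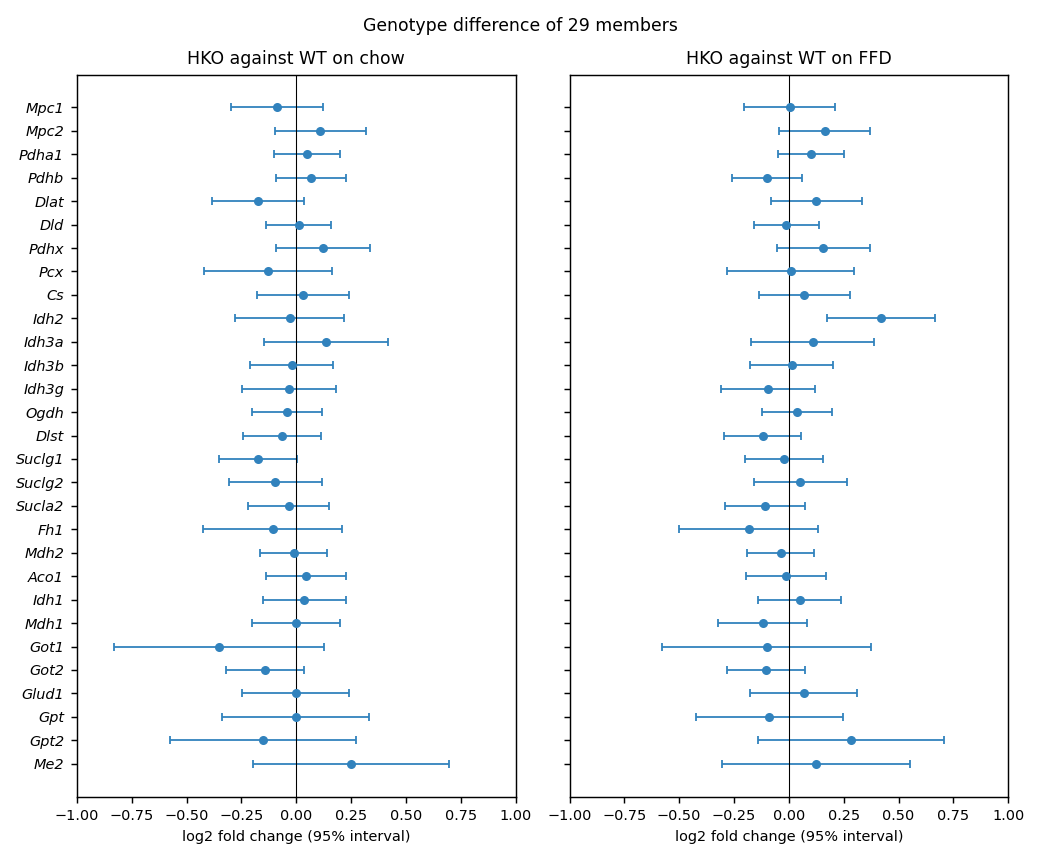
Log2 fold change of HKO against WT with its 95% interval for the 29 tested members on chow and on FFD. Points lie between -0.35 and 0.42, and Idh2 on FFD, from 0.17 to 0.67, is the only interval that does not include 0.

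Of the 68 tested genes of the 8 pathway lists around the cycle, 0 passed edgeR's test for genotype on chow and 0 on FFD. At an unadjusted p under 0.05 there were 5 on chow (7.35%, beside 11.8% of all genes) and 10 on FFD (14.7%, beside 9.34%). Averaged over the diets 0 passed and 12 had an unadjusted p under 0.05 (17.6%, beside 12.2%). DESeq2 called 1 of 69 on chow, Glul (beside 0.692% of all genes). On FFD it called 2 of 68, the pyruvate dehydrogenase kinases Pdk1 and Pdk4 (beside 0.885%). These genes are named here because of these calls. Glul on chow was at 788 ± 34.9 CPM in WT and 1250 ± 192 in HKO (SD, n = 3 each; log2 fold change 0.66, SE 0.12, adjusted p = 0.076 by edgeR). On FFD, Pdk4 was at 7.86 ± 0.864 CPM in WT and 27 ± 3.39 in HKO (1.78, SE 0.39, adjusted p = 0.17), and Pdk1 at 78.3 ± 5.26 and 102 ± 1.08 CPM (0.38, SE 0.07, adjusted p = 0.1). Averaged over the diets DESeq2 called 4 of 66 (beside 1.71% of all genes). Their edgeR log2 fold changes were 0.37 for Glul (SE 0.08, adjusted p = 0.11), 0.24 for Pdk1 (SE 0.05, adjusted p = 0.084), 0.36 for Pck1 (SE 0.10, adjusted p = 0.2) and -0.19 for Fbp1 (SE 0.06, adjusted p = 0.22). The genotype differences on chow and on FFD come from separate libraries. Over the members they had the same sign in 17 of 29 (58.6%, beside 53.2% of all tested genes), with a Pearson correlation across genes of 0.25 and a Spearman correlation of 0.31.

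The third comparison asks whether the diet change differed between the genotypes. By edgeR's test of the interaction 0 of the 29 members passed, as did 0 of all tested genes, and DESeq2 called 0 members (beside 0.659%). At an unadjusted p under 0.05 there were 2 members (6.9%, beside 9.06% of all tested genes). These were Idh2, whose diet change was larger in HKO by 0.45 on the log2 scale (SE 0.16, 95% interval 0.10 to 0.80, adjusted p = 0.43), and Dlat, by 0.30 (SE 0.14, adjusted p = 0.55). Pdhb had the next smallest p (-0.17, SE 0.10, adjusted p = 0.69), and was at -0.11 without HKO FFD replicate 1 (adjusted p = 0.86, edgeR). For Pdha1, Suclg2 and Aco1, the members that rose in each genotype, the differences were 0.05 (95% interval -0.16 to 0.26), 0.15 (-0.15 to 0.45) and -0.06 (-0.31 to 0.20). The FFD response of Idh2 was thus called in HKO mice and not in WT mice, while the test of the difference itself did not pass.

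The libraries WT chow replicate 3 and WT FFD replicate 2 stood apart in acute phase genes, with Saa1, serum amyloid A, at 1690 and 950 CPM. In WT chow replicate 3, 11 of the 29 members had the highest level of their group, and in WT FFD replicate 2, 18 had. The share of all tested genes highest in these libraries was not computed. With 3 libraries a group, some members are highest in any library, so these counts do not show a trait of the members. For 8 members (Mpc2, Pdhb, Pdhx, Pcx, Cs, Fh1, Glud1 and Gpt2) this held in each of these libraries. Fh1 was 1.27 and 1.46 times, Gpt2 1.1 and 1.52 times, Pcx 1.34 and 1.15 times and Glud1 1.15 and 1.3 times the mean of the other libraries of the group. Without these libraries Pdha1, Suclg2 and Aco1 passed the diet test in each genotype, Mdh1 and Mpc2 no longer passed it in WT mice, and 9 members passed it in HKO mice. The share of all tested genes in that fit is not given here, so the 9 does not show a trait of the members. The part of the acute phase in these levels was not tested.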

How the data were processed

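The authors deposited raw counts of reads per gene for 54532 genes, with gene coordinates, 1 column for each of the 12 mice. The submitters' processing notes name STAR, featureCounts 1.5.0-p3 and mm10; no source used here gives a STAR version, a strand setting or an annotation release. Gene length (the deposited column) was used only for levels per kb. Of the 30 members, 29 had the coordinates of GENCODE M21.

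Counts were fitted in R 4.3.3 with edgeR 4.0.16 (limma 3.58.1): filterByExpr, TMM scaling and a quasi-likelihood model over all 12 libraries, in which each group has its own mean. Benjamini-Hochberg adjustment of the two-sided p-values ran over the 14277 genes tested, with 0.05 as the threshold. SE and 95% intervals come from this fit. The fit was checked on simulated counts. Every member is described by its level; fold changes are given for members past the threshold and for the 3 smallest p-values in each comparison, and others were named after their values were seen. From the further lists at most 4 genes past the threshold were named. Of their 136 symbols, 134 were found. Members, lists and tests were chosen with earlier results of these data known.

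Replicates of a group were compared by a chi-square test of their counts: the value per degree of freedom was 9.26 to 39.7, and none were identical. Alternatives were other size factors, other filters, a robust dispersion, DESeq2 1.42.0, a replicate block, only the groups compared, and fits without 1 library or without both libraries high in acute phase genes. The labels' mouse numbers recur in each group, and the deviations of same-numbered mice were weakly correlated (18 pairs, correlations -0.114 to 0.117). With 3 mice a group, such values cannot exclude a small shared effect. Depth limits precision mainly for Me2 and Me3.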

Additional observations from a re-analysis of the deposited data

How the results depend on the processing

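Of the recomputed fold changes of named members, 578 kept their direction and side of the threshold, 45 fell short of the threshold, 1 newly passed it and 0 changed sign. Pdha1, Suclg2 and Aco1 passed in every alternative in WT, in HKO and averaged, as did Pdhb in HKO and averaged. For FFD against chow in WT, 5 members passed, 3 did without both libraries high in acute phase genes, and 3 to 5 with 1 library left out. In HKO, 5 passed, 9 did without both libraries, 8 with DESeq2, and 4 to 8 with 1 library left out (8 without WT chow replicate 3). Averaged over genotypes, 10 passed, and 6 to 10 with 1 library left out (6 without HKO chow replicate 3 or HKO FFD replicate 2). For HKO against WT on FFD, 0 passed, and 1 (Idh2) did with no filter on low counts. For HKO against WT and for the interaction, leaving out any library gave 0 members. The cause of these moves was not tested. The number of all genes passing moved between fits too. For HKO against WT on chow it was 3 of 14277 in the main fit and 395 of 27184 with no filter on low counts. Member counts in this paragraph stand without the share of all genes in their fit and do not show a trait of the members.

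With the mouse number as a replicate block, the counts were 5 in WT, 5 in HKO, 7 averaged, and 0 for each genotype comparison and the interaction. For HKO against WT on chow 0 of 14277 genes passed with this block, and the shares of all genes in the other comparisons are not given here. Averaged, Suclg1, Pcx and Idh2 then had adjusted p of 0.05, 0.061 and 0.066. The labels do not say whether equal numbers pair the mice, and 2 of 18 pairs correlated over 0.1.

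Depth limits Me3, with 1 to 8 counts, and Me2, with 41 to 108.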
